A study of Homo sapiens with 6 samples.

Results

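The genes described here are the MAP kinases, the kinases above and directly below them, and the dual-specificity (DUSP) phosphatases that switch MAP kinases off. They were taken as every gene whose array annotation symbol starts with MAPK, MAP2K, MAP3K, MAP4K or DUSP. The array held 39 such genes on 114 probes, and the 38 with values on at least 2 of the 3 arrays of each siRNA were kept, among 4393 genes and 8797 features (genes and unnamed probes) kept in all. They comprise 28 kinases, 6 inducible MAP kinase phosphatases (DUSP1, DUSP2, DUSP4, DUSP5, DUSP6 and DUSP7), the atypical phosphatases DUSP3 and DUSP12, the scaffold gene MAPK8IP3 and MAPK1IP1L. The left-out gene, the inducible phosphatase DUSP8, was measured once (-0.45 at 1 h with p65 siRNA).

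RNA came from the human T-cell leukaemia line Jurkat and was hybridised to 6 two-colour spotted arrays. On 3 arrays the Cy5 channel held RNA of cells given RPS3 siRNA and stimulated for 1, 3 or 6 h. On the other 3 it held RNA of cells given p65 siRNA at the same times. On every array the Cy3 channel held RNA of cells given nonspecific control siRNA and stimulated for that same time, and all cells received anti-CD3/CD28 at 1 ug, which mimics engagement of the T-cell receptor and its co-receptor. RPS3 is a protein of the small ribosomal subunit that also binds NF-kB, and p65, encoded by RELA, is an NF-kB subunit.

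In a MAP kinase cascade a MAP3 kinase phosphorylates a MAP2 kinase, which phosphorylates the MAP kinase itself on a threonine and a tyrosine. T-cell receptor signals reach the ERK branch through Ras and Raf, and the JNK and p38 branches through other MAP3 kinases. The inducible DUSPs are transcribed after stimulation and remove both phosphates, so they act as feedback on the kinases. Each value below is a log2 ratio of siRNA over control siRNA at 1 time of stimulation. It therefore says nothing about how strongly stimulation itself induced a gene, and a ratio array gives no level against which one gene could be ranked above another. In RNA from whole cultures, fewer cells expressing a gene and less RNA per cell cannot be told apart.

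The arrays had values for 12946 to 14423 of 15246 probes, with the most blanks on the 6 h arrays (15.1% with RPS3 siRNA and 14.8% with p65 siRNA). The RPS3 probe read -2.50, -2.53 and -1.44 at 1, 3 and 6 h on the RPS3 siRNA arrays and 0.11, 0.006 and 1.11 on the p65 siRNA arrays. RELA read -0.39, -0.69 and -0.54 with RPS3 siRNA and -0.41, -0.46 and -0.59 with p65 siRNA, and thus was about as low with RPS3 siRNA as with its own. RELA therefore does not tell the 2 siRNAs apart, and which arrays carried p65 siRNA rests on the labels alone. The 3 pairs of arrays most alike each joined arrays of different siRNAs. Across probes the closest pair was the 2 arrays at 6 h (r = 0.69), followed by RPS3 siRNA at 1 h with p65 siRNA at 3 h (r = 0.47) and RPS3 siRNA at 3 h with p65 siRNA at 1 h (r = 0.46). The last 2 pairs match neither by siRNA nor by time. The RPS3 probe was low on each array labelled RPS3 siRNA and on no array labelled p65 siRNA. A mix-up of array labels was not tested. A mix-up of times within a siRNA would alter the slopes and the values by time, but not the mean of that siRNA. All 3 pairs lie within a run of ID numbers in the labels: the RPS3 siRNA 3 h and p65 siRNA 1 h arrays form 1 run, and the other 4 arrays, both 6 h arrays included, form another. The labels do not say whether the arrays of a time shared a control RNA. Nor do they name separate cultures. The 3 times stand as the replicates of each siRNA, so its SDs and the spread behind each siRNA comparison include any change over time. The rest of the spread behind each p-value may be technical.

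No MAP kinase pathway gene or DUSP passed the test in any comparison, while DUSP5 with RPS3 siRNA and MAP3K1 with either siRNA lay furthest below control. With limma (Benjamini-Hochberg adjusted p under 0.05), 0 of 38 genes passed with RPS3 siRNA against control, with p65 siRNA against control, in the difference between the siRNAs, in the mean of all 6 arrays or in the slope over time. The share of all 8797 features that passed was 0% in each as well. The lowest adjusted p of a kept gene was 0.464 with RPS3 siRNA, 0.919 with p65 siRNA and 0.9996 for the difference. For the mean of all 6 arrays it was 0.259, and for the slope 0.189. At an unadjusted p under 0.05, 2 of the 38 genes (5.26%) were counted with RPS3 siRNA, where 7.71% of all features were. With p65 siRNA it was also 2 (5.26%) against 5.06% of all features, and for the difference 1 (2.63%) against 2.35%. By direction, 0 were higher with RPS3 siRNA (3.73% of features) and 2 lower, DUSP5 and MAP3K1 (3.98%). With p65 siRNA 1 was higher, MAPK7 (2.65%), and 1 lower, MAP3K1 (2.41%). In the difference 0 were higher (1.1%) and 1 lower, DUSP5 (1.25%). The 2 genes lower with RPS3 siRNA made 5.26% of the 38 and the 1 lower in the difference 2.63%, each above the share of features. Each count was 0, 1 or 2 genes, too few to tell such a share from the background. The median 95% interval of a gene reached 0.31 to either side with RPS3 siRNA, 0.30 with p65 siRNA and 0.43 for the difference. These intervals are not adjusted for the number of features, and even the means furthest from 0 did not pass.

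**Figure D1:**
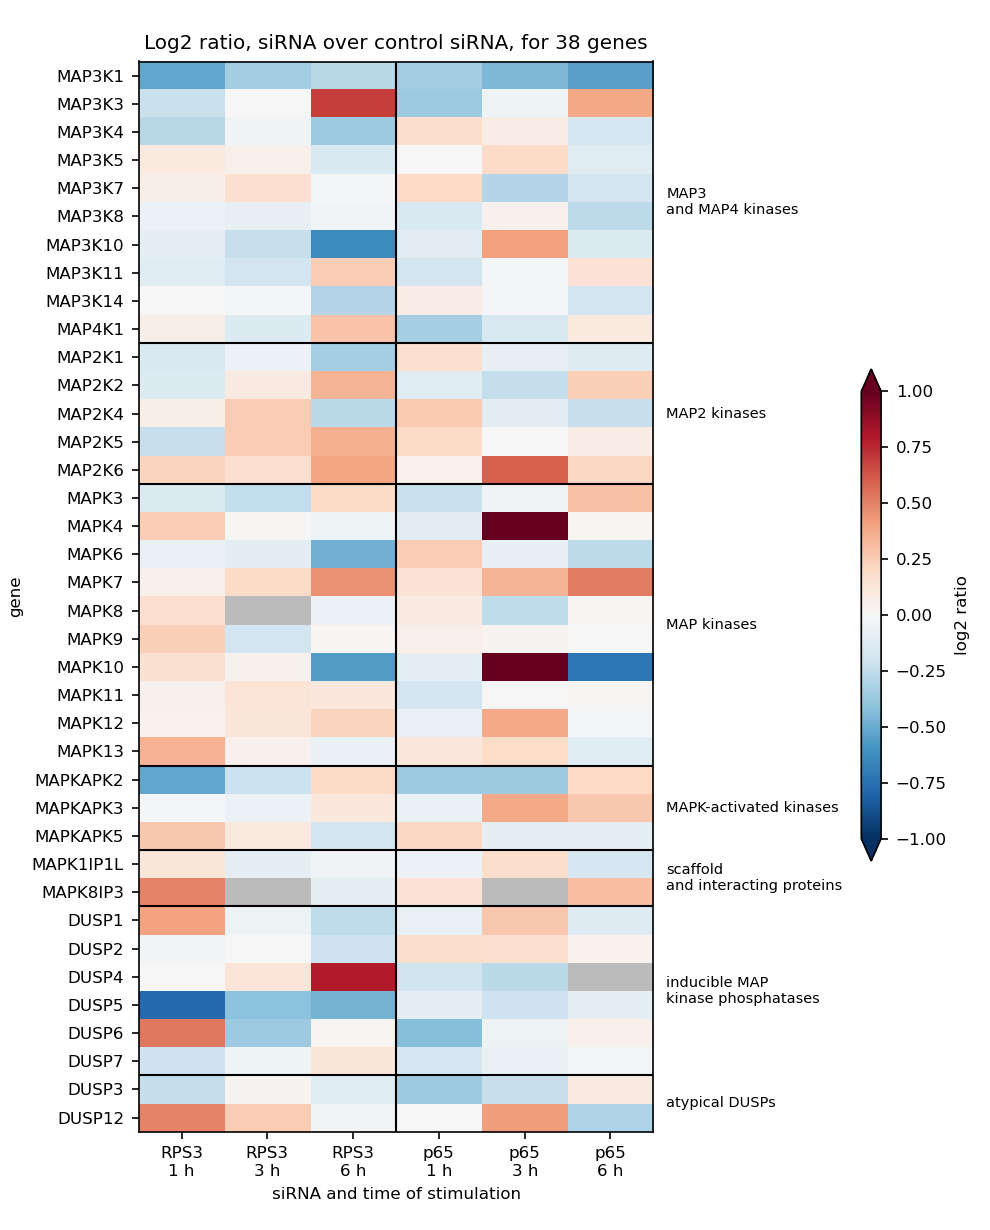
Log2 ratio of siRNA over control siRNA for the 38 kept genes (rows, grouped by role) on the 3 RPS3 siRNA arrays and the 3 p65 siRNA arrays (columns, by hours of stimulation); red is above 0, blue below 0, grey has no value. DUSP5 and MAP3K1 are blue in all 6 columns and MAPK7 and MAP2K6 red in all 6, and MAPK4 (1.41) lies beyond the end of the colour scale on the p65 siRNA array at 3 h.

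Among the inducible phosphatases, DUSP5 was the gene furthest from 0 with RPS3 siRNA. DUSP5 encodes a nuclear phosphatase that binds and dephosphorylates ERK. It read -0.78, -0.41 and -0.47 at 1, 3 and 6 h with RPS3 siRNA, against -0.09, -0.21 and -0.09 with p65 siRNA. Every array lay below 0, and the RPS3 siRNA arrays were all lower than the p65 siRNA arrays, with no overlap. The mean was -0.55 ± 0.20 with RPS3 siRNA (SD, n = 3, 1.47-fold lower than control; 95% interval -0.83 to -0.28; limma unadjusted p = 0.00173, adjusted p = 0.464) and -0.13 ± 0.07 with p65 siRNA (n = 3). The difference, RPS3 siRNA minus p65 siRNA, was -0.42 (95% interval -0.81 to -0.04; limma unadjusted p = 0.0352, adjusted p = 0.9996). Its 3 probes ran the same way with RPS3 siRNA. Probe 15887_1 read -0.63, -0.48 and -0.46, and probe 28445_1 read -0.79, -0.34 and -0.48. Probe 28447_1 had a value only at 1 h (-0.92). On the p65 siRNA arrays their means were -0.14, -0.12 and -0.14. Of all features, 5.25% had RPS3 siRNA arrays entirely below the p65 siRNA arrays, and 2 of the 38 genes (5.26%) did.

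The other such gene was DUSP2, a nuclear phosphatase abundant in activated lymphocytes. DUSP2 read -0.025, -0.005 and -0.21 with RPS3 siRNA, against 0.18, 0.16 and 0.03 with p65 siRNA. All RPS3 siRNA arrays lay just below 0 and all p65 siRNA arrays just above it. The difference was -0.20 (95% interval -0.55 to 0.15; limma adjusted p = 0.9996), which did not pass. Its probes 17185_1 and 27686_1 differed in sign on the RPS3 siRNA arrays at 1 h (-0.07 and 0.02) and at 3 h (0.13 and -0.14).

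DUSP4, a nuclear phosphatase with targets among the ERK and JNK kinases, ran the other way. It read -0.002, 0.13 and 0.79 with RPS3 siRNA, against -0.20 and -0.27 with p65 siRNA at 1 and 3 h, with no value at 6 h. The difference, fitted on 5 arrays, was 0.54 (95% interval -0.11 to 1.2; limma adjusted p = 0.9996). Without the RPS3 siRNA array at 6 h, which rested on 1 probe, it was 0.30. The RPS3 siRNA arrays of DUSP4 and of the p38 kinase gene MAPK11 all lay above the p65 siRNA arrays, which makes 2 of 38 genes (5.26%) against 4.56% of all features. The DUSP4 averages are unlike, because probe 35887_1, which alone gives the 6 h value, had no value on any p65 siRNA array.

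DUSP1, the founding nuclear phosphatase of the family and a target of stress and growth signals, had 8 probes. It read 0.40, -0.05 and -0.26 with RPS3 siRNA, against -0.08, 0.27 and -0.13 with p65 siRNA. All 8 probes were above 0 on the RPS3 siRNA array at 1 h, and the groups overlapped. Probes 26487_1 and 26488_1 read -0.43 and -0.98 with RPS3 siRNA at 3 h, and -0.44 and -0.87 with p65 siRNA at 1 h. The other probes lay between -0.04 and 0.40 on the first of these arrays and between -0.04 and 0.35 on the second. Both gene values below 0 there thus rest on these probes. Medians of nearby probes were -0.31 and -0.29 on the first array and -0.18 and -0.16 on the second. Neither probe met the rule for shifted ranges given below. Means over the 3 times were 0.03 ± 0.34 with RPS3 siRNA and 0.02 ± 0.22 with p65 siRNA. DUSP6, a cytoplasmic ERK phosphatase, read 0.53, -0.36 and 0.02 with RPS3 siRNA, against -0.43, -0.05 and 0.05 with p65 siRNA. Of its 3 probes, 26244_1 and 26469_1 sat in ranges of probe numbers that were shifted as a whole on several arrays. With the remaining probe DUSP6 read -0.06, -0.07 and 0.16 with RPS3 siRNA, against -0.07, -0.31 and 0.41 with p65 siRNA. The high value with RPS3 siRNA at 1 h thus rested on the left-out probes, mainly 26469_1 (1.47, against 0.17 for 26244_1). On that array the ranges of both probes were not shifted, with medians of nearby probes of 0.05 around 26469_1 and 0.07 around 26244_1. The cause of the high 26469_1 value was not tested. DUSP7, a cytoplasmic ERK phosphatase like DUSP6, read -0.21, -0.04 and 0.12 with RPS3 siRNA, against -0.17, -0.07 and -0.01 with p65 siRNA. The p65 siRNA values were all below 0, and the groups overlapped.

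**Figure D2:**
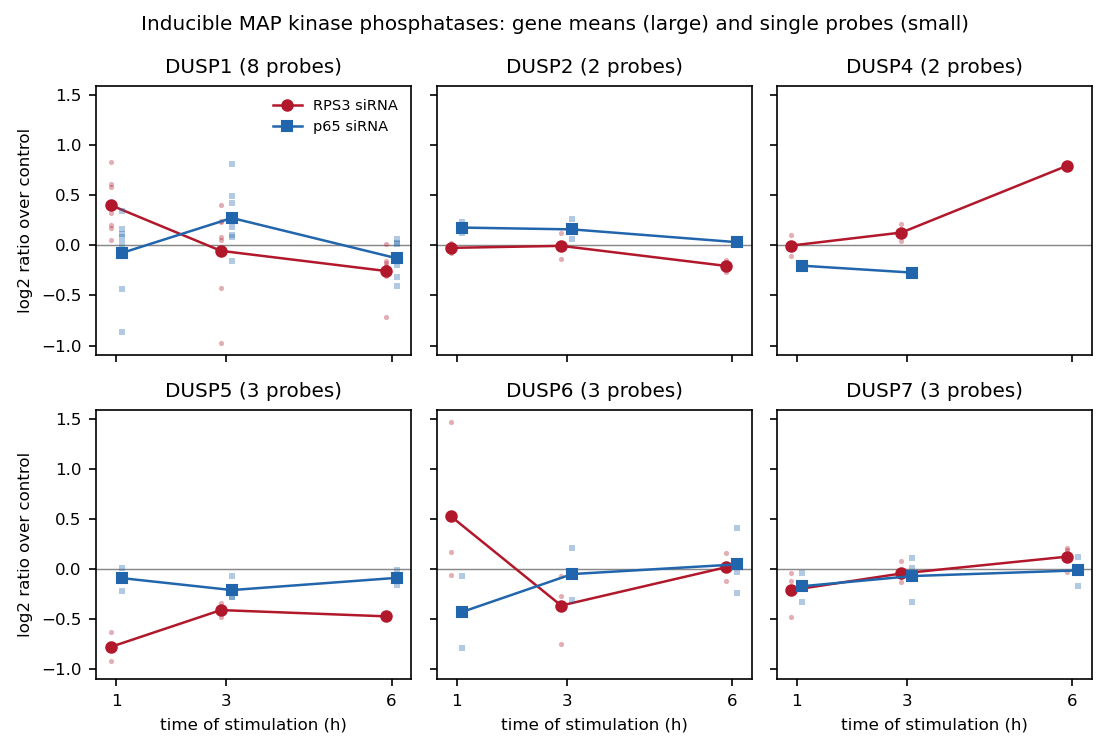
Log2 ratio over control siRNA (vertical axis) against hours of stimulation (horizontal axis) for the 6 inducible phosphatases; large symbols are gene means on 1 array each with RPS3 siRNA (red circles) or p65 siRNA (blue squares), and small symbols are single probes. DUSP5 with RPS3 siRNA lies between -0.78 and -0.41, below every p65 siRNA array, while the DUSP1 and DUSP6 probes spread over more than the distance between the siRNAs.

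The promoters of 34 of the 39 genes were matched by symbol in RefSeq (GRCh38.p14), all but those of DUSP12, DUSP4, DUSP5, MAP3K1 and MAPKAPK2. The promoters of 3 inducible phosphatases are shown because p65 acts by binding kappa-B sites, and MAP kinase signals reach such genes through AP-1 sites, cyclic AMP response elements (CRE) and CArG boxes. Each runs from 250 bases before the gene's start to 50 after it, on the minus strand, and capitals mark matches to the motifs searched.
DUSP1, chr5:172771146-172771445: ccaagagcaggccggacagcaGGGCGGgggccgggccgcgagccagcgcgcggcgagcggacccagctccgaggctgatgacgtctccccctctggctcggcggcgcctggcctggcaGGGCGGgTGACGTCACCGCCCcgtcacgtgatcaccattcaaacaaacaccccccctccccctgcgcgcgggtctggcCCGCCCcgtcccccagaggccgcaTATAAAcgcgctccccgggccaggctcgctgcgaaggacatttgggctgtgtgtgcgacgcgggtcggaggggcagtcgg
DUSP2, chr2:96145391-96145690: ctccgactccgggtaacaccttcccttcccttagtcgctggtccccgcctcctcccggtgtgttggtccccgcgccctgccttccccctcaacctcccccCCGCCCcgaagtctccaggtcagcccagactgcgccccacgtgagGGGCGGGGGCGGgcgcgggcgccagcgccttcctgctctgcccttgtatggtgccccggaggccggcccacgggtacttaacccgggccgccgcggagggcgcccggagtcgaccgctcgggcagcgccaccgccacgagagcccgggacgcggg
DUSP7, chr3:52056522-52056821: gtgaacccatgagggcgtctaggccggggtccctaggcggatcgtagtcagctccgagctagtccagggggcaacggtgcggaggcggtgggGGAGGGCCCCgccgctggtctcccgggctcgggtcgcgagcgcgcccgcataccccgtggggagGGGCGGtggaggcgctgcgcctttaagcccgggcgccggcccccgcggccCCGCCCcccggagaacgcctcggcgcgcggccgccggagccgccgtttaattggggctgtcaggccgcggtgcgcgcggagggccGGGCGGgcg

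The motifs were searched on both strands. DUSP1 holds a CRE (TGACGTCA) starting at position -125, directly followed by a GC box (GGGCGG, here on the other strand), and a TATA box (TATAAA) at -30. DUSP7 holds a kappa-B match at -158 on the other strand. DUSP2 holds GC boxes only. The CRE was present in 4 of the 34 promoters and in 1.98% of 27305 RefSeq promoters. Those 4 were DUSP1, DUSP8, MAPK10 and MAPK8IP3. A kappa-B match was present in 7 (DUSP7, MAP3K8, MAP3K11, MAPK4, MAPK11, MAPK12 and MAPK8IP3), and in 10.8% of all promoters. The AP-1 site (TGANTCA) and the CArG box had no match in the 34, against 7.76% and 1.29% of all promoters. A GC box was in 29 of 34 and in 44.6% of all. A match describes the letters only.

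At the top of the cascade, MAP3K1 was below 0 on all 6 arrays. MAP3K1 encodes MEKK1, which activates the JNK branch. It read -0.52, -0.35 and -0.28 at 1, 3 and 6 h with RPS3 siRNA, against -0.35, -0.45 and -0.54 with p65 siRNA. The groups overlapped, and the difference was 0.07 (95% interval -0.30 to 0.43). The mean was -0.38 ± 0.12 with RPS3 siRNA (n = 3, 1.30-fold lower than control) and -0.45 ± 0.10 with p65 siRNA (n = 3, 1.36-fold lower). Over all 6 arrays it was -0.41 (limma unadjusted p = 0.000825, adjusted p = 0.259), the lowest mean among the 38 genes. A dye effect common to all arrays would remain in that mean, because no dye swap was named. Its probes disagreed. Probe 28037_1 read -0.80, -0.65 and -0.59 with RPS3 siRNA, against -0.13, -1.15 and -0.73 with p65 siRNA. Probe 24365_1 read 0.14, -0.15 and 0.03 with RPS3 siRNA, against -0.47, 0.54 and -0.35 with p65 siRNA. Probe 24365_1 had the highest mean of the 3 probes and was left out after the data were seen, so a lower gene mean follows from that choice. Without it the gene averaged -0.63 ± 0.20 with RPS3 siRNA and -0.66 ± 0.34 with p65 siRNA. Both 6 h values then rest on probe 28037_1 alone.

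DUSP5 and MAP3K1 were the 2 of 38 genes (5.26%) below 0 on every array, where 3.43% of all features were. The 2 above 0 on every array (5.26%, against 5.13% of all features) were MAPK7 and MAP2K6. MAPK7 encodes ERK5, an atypically large MAP kinase with its own activation domain for transcription. It read 0.05, 0.19 and 0.46 with RPS3 siRNA, against 0.14, 0.34 and 0.51 with p65 siRNA. Its mean over all 6 arrays was 0.28 (limma unadjusted p = 0.0161, adjusted p = 0.427). Both 6 h values rest on 1 of its 2 probes. MAP2K6, a kinase that activates p38, read 0.22, 0.16 and 0.40 with RPS3 siRNA, against 0.04, 0.60 and 0.20 with p65 siRNA. Its mean over all 6 arrays was 0.27 (limma unadjusted p = 0.0242, adjusted p = 0.437), and the groups overlapped. At an unadjusted p under 0.05 these 4 genes were the ones counted in the mean of all arrays, 10.5% of 38 against 10.2% of all features, with 2 higher (5.48% of features) and 2 lower (4.69%). Taking each siRNA alone, 4 genes were above 0 on all RPS3 siRNA arrays (10.5%, against 18% of features) and 9 below (23.7%, against 16%). The 9 were DUSP2, DUSP5, MAP2K1, MAP3K1, MAP3K4, MAP3K8, MAP3K10, MAP3K14 and MAPK6, with 5 of them among the 10 kept MAP3 and MAP4 kinases. Some of these values were close to 0, such as MAP3K14 at 1 and 3 h (-0.0035 and -0.013). With p65 siRNA 6 were above 0 on all arrays (15.8%, against 14.3%) and 4 below (10.5%, against 11.4%).

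**Figure D3:**
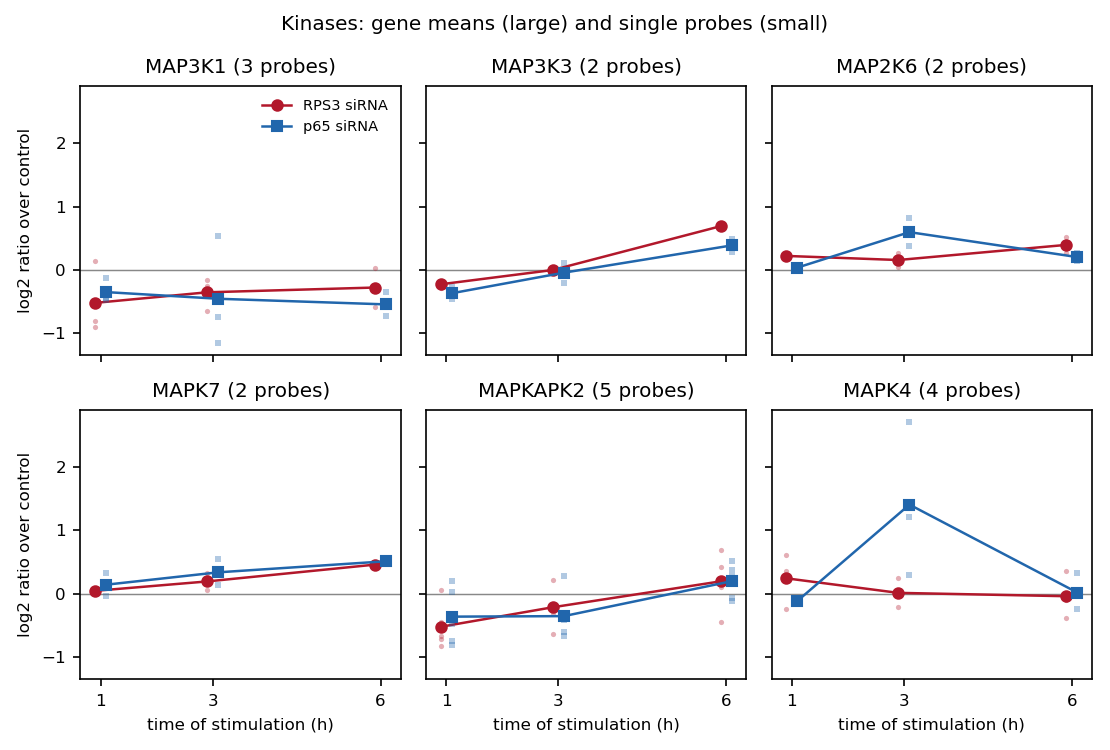
Log2 ratio over control siRNA (vertical axis) against hours of stimulation (horizontal axis) for 6 kinase genes; large symbols are gene means on 1 array each with RPS3 siRNA (red circles) or p65 siRNA (blue squares), and small symbols are single probes. MAP3K3 and MAPKAPK2 are higher at 6 h than at 1 h with either siRNA, and MAPK4 stands out on the p65 siRNA array at 3 h through a probe at 2.71.

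Of the 10 MAP3 and MAP4 kinases, MAP3K1 included, 7 had a mean below 0 with RPS3 siRNA and 7 with p65 siRNA, with medians of -0.04 and -0.03. MAP3K10, a mixed-lineage kinase of the JNK branch, read -0.09, -0.23 and -0.64 with RPS3 siRNA, against -0.11, 0.41 and -0.15 with p65 siRNA. Its groups overlapped, and without the RPS3 siRNA array at 6 h its RPS3 siRNA mean of -0.32 was -0.16. MAP3K4, which feeds p38 and JNK, read -0.28, -0.03 and -0.36 with RPS3 siRNA, against 0.18, 0.08 and -0.18 with p65 siRNA. MAP3K14 encodes NIK, the kinase of the alternative NF-kB pathway, and MAP3K8 encodes TPL2, an activator of MEK that NF-kB p105 holds in check. MAP3K14 averaged -0.10 ± 0.16 with RPS3 siRNA and -0.05 ± 0.14 with p65 siRNA, while MAP3K8 averaged -0.06 ± 0.03 with RPS3 siRNA and -0.12 ± 0.16 with p65 siRNA (SD, n = 3 each). MAP3K7 (TAK1), which also feeds NF-kB, averaged 0.07 ± 0.09 with RPS3 siRNA and -0.09 ± 0.26 with p65 siRNA. MAP4K1 (HPK1), a brake on T-cell receptor signalling, averaged 0.07 ± 0.21 with RPS3 siRNA and -0.13 ± 0.21 with p65 siRNA. MAP3K3 is described with the slopes. The last genes of the tier, MAP3K5 (ASK1, a stress-activated kinase) and MAP3K11 (a mixed-lineage kinase), had means between -0.02 and 0.02 with either siRNA.

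In the MAP2 kinase tier 4 of 5 genes had a mean above 0 with RPS3 siRNA and 2 of 5 with p65 siRNA. The exception with RPS3 siRNA was MAP2K1, which encodes the ERK activator MEK1. MAP2K1 read -0.15, -0.06 and -0.33 with RPS3 siRNA, against 0.16, -0.08 and -0.13 with p65 siRNA. Its partner MAP2K2 (MEK2) read -0.14, 0.09 and 0.34 with RPS3 siRNA, against -0.12, -0.24 and 0.24 with p65 siRNA. The 2 activators of ERK thus differed in sign at 6 h on the arrays of either siRNA. The JNK activator MAP2K4 averaged 0.01 ± 0.27 with RPS3 siRNA and -0.02 ± 0.25 with p65 siRNA. The ERK5 activator MAP2K5 averaged 0.13 ± 0.31 with RPS3 siRNA and 0.09 ± 0.10 with p65 siRNA.

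Of the 10 MAP kinases, 7 had a mean above 0 with RPS3 siRNA and 7 with p65 siRNA, with medians of 0.06 and 0.04. ERK1 (MAPK3) read -0.15, -0.25 and 0.19 with RPS3 siRNA, against -0.22, -0.04 and 0.29 with p65 siRNA. JNK1 (MAPK8) read 0.16 and -0.06 at 1 and 6 h with RPS3 siRNA, against 0.09, -0.25 and 0.02 with p65 siRNA. JNK2 (MAPK9) read 0.24, -0.19 and 0.02 with RPS3 siRNA, against 0.05, 0.03 and 0.002 with p65 siRNA. None of the 3 separated the siRNAs. Of the 5 MAPK9 probes, 2 sat in shifted ranges of probe numbers, and without them MAPK9 read 0.10, 0.16 and 0.25 with RPS3 siRNA, against 0.13, -0.09 and 0.05 with p65 siRNA.

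The p38 genes had small ratios. MAPK11 read 0.05, 0.14 and 0.11 with RPS3 siRNA, against -0.19, 0.007 and 0.01 with p65 siRNA, a difference of 0.15 (95% interval -0.19 to 0.50). Of its 3 probes, 1 was blank on 4 of the 6 arrays, and not the same 1 on each, so the non-overlap rests on unlike averages. MAPK12 read 0.03, 0.12 and 0.22 with RPS3 siRNA, against -0.07, 0.38 and -0.02 with p65 siRNA. MAPK13 read 0.35, 0.05 and -0.06 with RPS3 siRNA, against 0.12, 0.18 and -0.12 with p65 siRNA. Neither MAPK12 nor MAPK13 separated the siRNAs. MAPK6 (ERK3) read -0.075, -0.10 and -0.48 with RPS3 siRNA, against 0.26, -0.08 and -0.26 with p65 siRNA. With RPS3 siRNA at 1 h its probes 28505_1 and 31557_1 differed in sign (0.25 and -0.40). The 3 h value with RPS3 siRNA rests on probe 31557_1 alone.

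The MAPK-activated kinases beside MAPKAPK2, which is described with the slopes, were MAPKAPK3, a p38 substrate like it, and MAPKAPK5, which acts below ERK3 and ERK4. MAPKAPK3 averaged 0.009 ± 0.09 with RPS3 siRNA and 0.19 ± 0.23 with p65 siRNA. MAPKAPK5 averaged 0.06 ± 0.23 with RPS3 siRNA and 0.003 ± 0.18 with p65 siRNA. Of the atypical phosphatases, DUSP12 read 0.50, 0.26 and -0.03 with RPS3 siRNA, against 0.005, 0.42 and -0.31 with p65 siRNA. DUSP3 (VHR), which dephosphorylates ERK and JNK, averaged -0.11 ± 0.13 with RPS3 siRNA and -0.17 ± 0.23 with p65 siRNA. For each of these 4 genes the arrays of the siRNAs overlapped. MAPK8IP3, a scaffold of the JNK branch, had 2 values per siRNA, 0.49 and -0.09 with RPS3 siRNA and 0.14 and 0.30 with p65 siRNA (1 and 6 h). MAPK1IP1L averaged -0.002 ± 0.11 with RPS3 siRNA and -0.02 ± 0.18 with p65 siRNA.

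The p65 siRNA array at 3 h held the 2 values beyond 1 among these genes. JNK3 (MAPK10), a form best known from neurons, read 0.16, 0.04 and -0.56 with RPS3 siRNA, against -0.10, 1.00 and -0.72 with p65 siRNA. MAPK4 (ERK4) read 0.24, 0.01 and -0.04 with RPS3 siRNA, against -0.11, 1.41 and 0.02 with p65 siRNA. For MAPK4 a probe with no value on 4 arrays read 2.71 there. For MAPK10 probe 15914_1, which had values on 3 arrays, read 1.76 there, and the other probes read 0.87 and 0.38. The MAPK10 value with p65 siRNA at 6 h rests on probe 28472_1 alone. Ratios of 12 marker genes of other cell lineages had a median of 0.32 on that array, with 9 of 12 above 0, against -0.14 to 0.03 on the other 5 arrays. That array also had the widest spread of all probes (SD 0.51). The part of either in the MAPK4 and MAPK10 values was not tested.

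Over time, 6 of the 38 genes (15.8%) had a slope with an unadjusted p under 0.05, where 19.1% of all features did. MAP3K3, which encodes MEKK3, an activator of the ERK5 and p38 branches, had the steepest slope. It read -0.23, 0 and 0.69 at 1, 3 and 6 h with RPS3 siRNA, and -0.37, -0.04 and 0.39 with p65 siRNA. Its slope was 0.17 per hour (95% interval 0.09 to 0.25; limma unadjusted p = 0.00175, adjusted p = 0.189). MAPKAPK2, which encodes MK2, the p38 substrate kinase that controls cytokine mRNA stability, read -0.52, -0.21 and 0.20 with RPS3 siRNA, and -0.36, -0.35 and 0.20 with p65 siRNA. Its slope was 0.13 per hour (95% interval 0.05 to 0.21; limma unadjusted p = 0.00752, adjusted p = 0.189). Both genes lay below 0 at 1 h and above 0 at 6 h with either siRNA. Probe 32219_1 of MAPKAPK2 ran the opposite way to the other 4, from above 0 at 1 h to below 0 at 6 h.

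MAPK3, MAP2K2 and MAPK7 were the other genes with a positive slope at an unadjusted p under 0.05, between 0.08 and 0.09 per hour, and MAPK6 had a negative slope of -0.09. The adjusted p of these 4 lay between 0.214 and 0.248. At that threshold slopes above 0 thus made up 5 of the 38 genes, against 12.1% of all features, and slopes below 0 made up 1, against 7%. The count of 6 was 1 without the RPS3 siRNA array at 6 h, 1 without the p65 siRNA array at 6 h, 3 without RPS3 siRNA at 3 h and 10 without p65 siRNA at 3 h. With the run of ID numbers as a covariate it was 4, and the slopes of MAP3K3 and MAPKAPK2 were 0.16 and 0.14 per hour. Of the 11 T-cell markers, 8 were above 0 on the RPS3 siRNA array at 6 h (median 0.555) and 9 on the p65 siRNA array at 6 h (median 0.25). TRAT1 was below 0 on both (-0.45 and -0.39). In the slope, 6 of the 11 markers were higher at an unadjusted p under 0.05, where 12.1% of all features were. Their part in the slopes of the kinases was not tested.

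**Figure D4:**
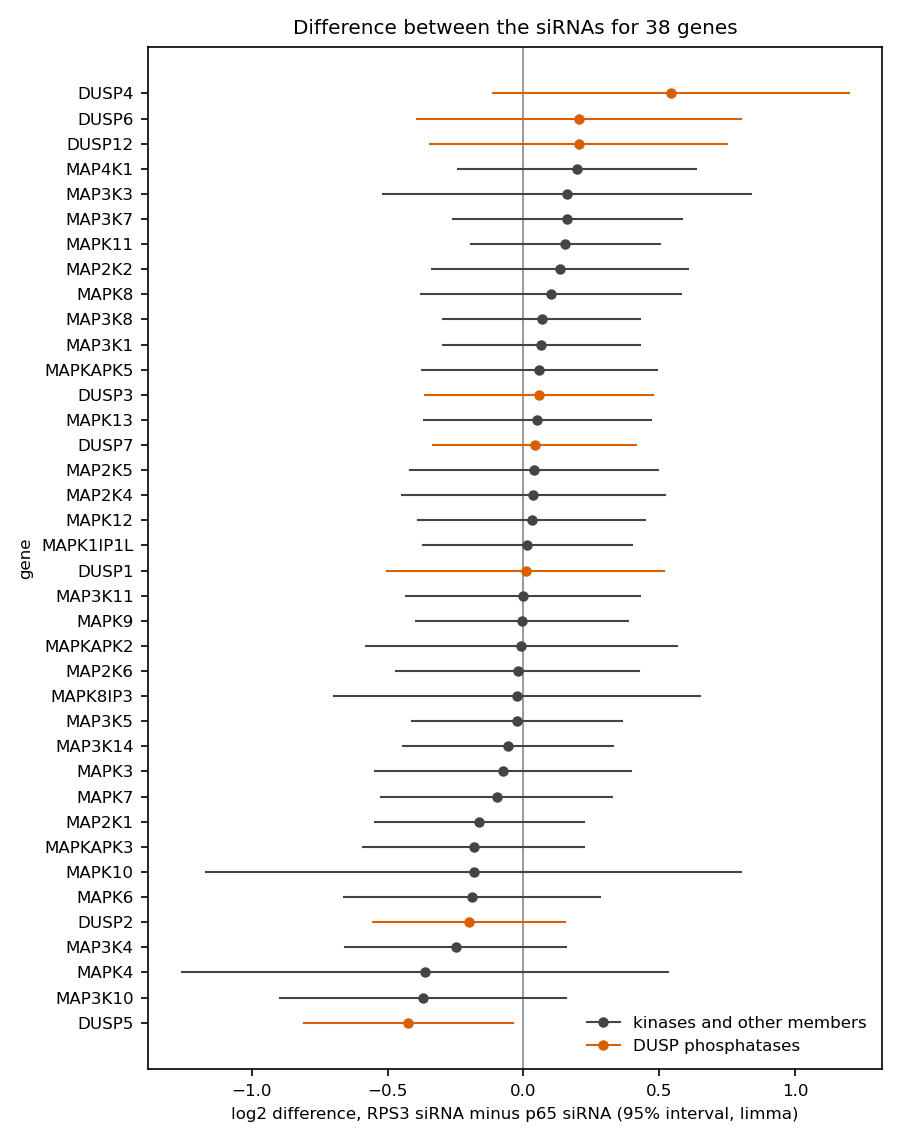
Difference of the log2 ratios, RPS3 siRNA minus p65 siRNA (horizontal axis), with its 95% limma interval for each of the 38 genes (rows, sorted), DUSP phosphatases in orange and the other genes in grey. DUSP5 (-0.42) is the gene whose interval does not reach 0, and its adjusted p is 0.9996.

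The kinases were set against the inducible phosphatases on each array. The median ratio of the 28 kinases was 0.01, 0 and -0.02 at 1, 3 and 6 h with RPS3 siRNA, and -0.04, -0.008 and -0.009 with p65 siRNA. The median of the 6 phosphatases was -0.01, -0.05 and -0.09 with RPS3 siRNA, and -0.13, -0.06 and -0.01 with p65 siRNA. The kinases were thus slightly above the phosphatases on all 6 arrays. Their median minus that of the phosphatases was 0.03, 0.05 and 0.07 with RPS3 siRNA, and 0.10, 0.05 and 0.005 with p65 siRNA. The mean was 0.05 ± 0.02 with RPS3 siRNA and 0.05 ± 0.05 with p65 siRNA (SD, n = 3 each). With each probe counted alone the p65 siRNA value was -0.02. No test was made over the genes.

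**Figure D5:**
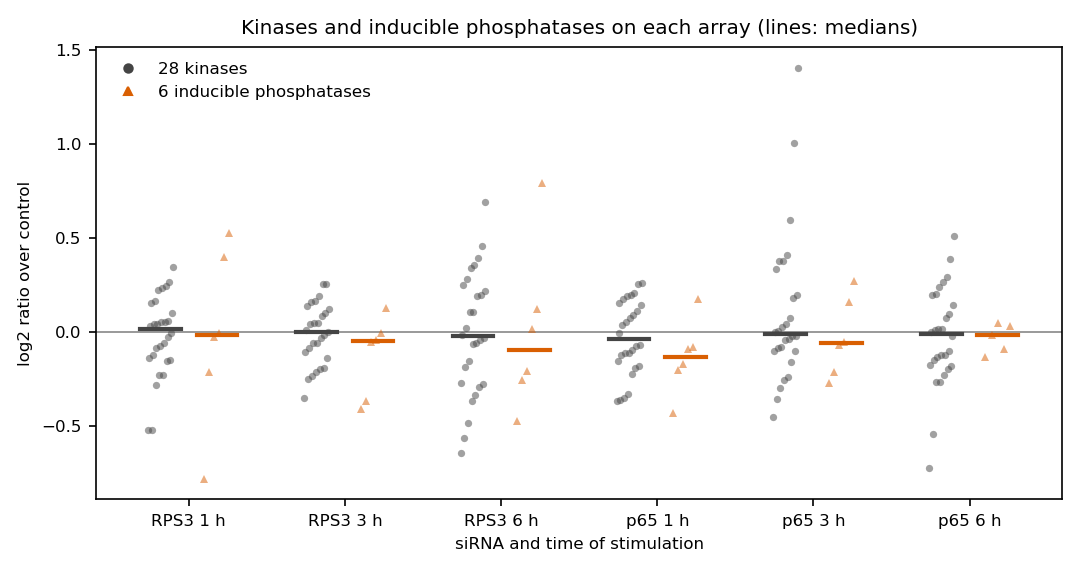
Log2 ratio over control siRNA (vertical axis) of each of the 28 kinases (grey circles) and 6 inducible phosphatases (orange triangles) on the 6 arrays (horizontal axis, by siRNA and hours of stimulation), with horizontal lines for the medians. The medians stay between -0.13 and 0.01 on every array, and single genes of either class spread on both sides of 0.

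The wider pathway was described with lists of genes that do not belong to the MAPK and DUSP symbols. None of their genes passed in limma. Of 18 genes of the arm that leads through Ras to Raf, 1 was higher with RPS3 siRNA at an unadjusted p under 0.05, where 3.73% of all features were. This was RASGRP1, the Ras activator that T cells use below the receptor. It read 0.43, 0.60 and 0.91 with RPS3 siRNA, against -0.005, -0.18 and 0.17 with p65 siRNA, a difference of 0.65 (limma unadjusted p = 0.00946, adjusted p = 0.9996). All RPS3 siRNA arrays were above all p65 siRNA arrays, as they were for 4.56% of all features. The list's median was -0.04 with RPS3 siRNA, against 0.02 over all features. In the slope, 5 of the 18 were higher and 2 lower at an unadjusted p under 0.05, where 12.1% and 7% of all features were. SPRED2, an inhibitor of Ras signalling to Raf, was among them, with -0.65, -0.51 and 0.63 at 1, 3 and 6 h with RPS3 siRNA and -0.51, -0.97 and 0.72 with p65 siRNA.

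Of 14 STE20-type kinases, small GTPases and adaptors above the JNK and p38 branches, 1 was lower with RPS3 siRNA at an unadjusted p under 0.05, where 3.98% of all features were. RAC1, a small GTPase that activates those branches, read -0.46, -0.34 and -0.46 with RPS3 siRNA, against 0.32, 0.05 and -0.02 with p65 siRNA. The arrays did not overlap, as in 5.25% of all features, and the difference was -0.54 (limma unadjusted p = 0.0114, adjusted p = 0.9996). Of 15 substrates and effector kinases, 1 was higher with RPS3 siRNA at that threshold (3.73% of all features). RPS6KA3, which encodes the ERK-activated kinase RSK2, read 0.46, 0.33 and 0.29 with RPS3 siRNA, against 0.08, -0.28 and 0.15 with p65 siRNA. The median of the upstream list was -0.12 with RPS3 siRNA and -0.08 with p65 siRNA. That of the substrates was 0.001 with RPS3 siRNA and -0.02 with p65 siRNA.

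Of 14 immediate-early transcripts, which MAP kinase signals switch on within minutes, 1 was higher (MYC) and 1 lower (IER5) with RPS3 siRNA at an unadjusted p under 0.05, and IER5 was also lower with p65 siRNA. Of all features 3.73% were higher and 3.98% lower with RPS3 siRNA, and 2.41% were lower with p65 siRNA. IER5 read -0.57, -0.28 and -0.35 with RPS3 siRNA, against -0.60, -0.33 and -0.48 with p65 siRNA. Its mean over all 6 arrays was -0.43 (limma unadjusted p = 0.000867, adjusted p = 0.263). MYC read 0.27, 0.65 and 0.24 with RPS3 siRNA, against 0.43, -0.13 and -0.05 with p65 siRNA. The list's median was -0.07 with RPS3 siRNA, against 0.02 over all features, and -0.01 with p65 siRNA, against 0.02.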

How the data were processed

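The deposited values were log ratios per probe on 2-colour arrays, read here as log2 and as siRNA (Cy5) over control (Cy3). The dyes and the low RPS3 probe make this direction likely, but base and direction are not given in the sources used here. If the values are natural logs, each size is larger on the log2 scale; base 10 is implausible because values reached 9.52. How the authors handled images, background, blanks and normalization was also not given.

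Each array was centred on its median. Probes were named from GEO's platform annotation (10169 probes with 1 symbol, 4 with several, 5073 with none), of whose 4604 symbols 4584 matched a current RefSeq record, and probes of a symbol were averaged. The moderated linear models of limma 3.58.1 (R 4.3.3) covered all 6 arrays and 8797 features, with the 3 times as the replicates of each siRNA. The script was tested on simulated data. No control-against-control array gives the control's own spread, and without intensities the signal over background is not known. Precision is limited by the number of arrays.

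Array values are given for all inducible phosphatases and classical MAP kinases. They are also given for the 5 highest and 5 lowest genes of each contrast among those with 1 sign on every array. For the slope, the sign had to be the same in each siRNA. Of the genes so picked, MAP2K4, MAP2K5, MAP4K1 and MAPKAPK5 are given by their means only. Other kept genes are given by role, and genes of the wider pathway from the extremes of each list. The members and lists were chosen with earlier results of these data known. Alternatives covered blanks, centring, normalization, probe averaging, time as a block, the ID series of the labels, left-out arrays, log base and moderation. Same-time arrays did not deviate together at every time (r = -0.08, 0.02 and 0.73 at 1, 3 and 6 h), so they were not treated as paired. For 35 kept genes with several probes, the probe means had 1 sign in 20 with RPS3 siRNA and 13 with p65 siRNA. Probes were called shifted where the 50 nearest probe numbers had a median beyond 0.2 in size on at least 3 arrays (2.62% of probes, 5 of the 114 of these genes).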

Additional observations from a re-analysis of the deposited data

Results flagged for a closer look

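DUSP2 differed in direction between the siRNAs: every RPS3 siRNA array was below 0 and every p65 siRNA array above it, with means of -0.08 ± 0.11 with RPS3 siRNA and 0.12 ± 0.08 with p65 siRNA (SD, n = 3 each) and a difference, RPS3 siRNA minus p65 siRNA, of -0.20. The limma adjusted p of that difference was 0.9996, and its 95% interval ran from -0.55 to 0.15. The RPS3 siRNA values at 1 and 3 h were close to 0 (-0.025 and -0.005), and the probes differed in sign on those arrays. Of all features, 5.25% had RPS3 siRNA arrays entirely below the p65 siRNA arrays. The share with opposite signs was not counted.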

How the results depend on the processing

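None of the 38 genes passed under any alternative run. Of 631 recomputed values of named genes, 628 kept their direction. Much of this count was fixed in advance, because these genes were picked for 1 sign across arrays. Leaving out an array could thus not reverse a siRNA mean or the mean of all arrays. Nor can the log base or the moderation change a sign. The other 3 values reversed. DUSP4 with p65 siRNA was 0.0058 with the time point as a replicate block, against -0.24. The MAP3K3 difference was -0.02 without the p65 siRNA array at 1 h and -0.11 without the RPS3 siRNA array at 6 h, against 0.16, and its range with 1 array left out was -0.11 to 0.36. Counts of all features that passed, 0 as reported, moved as follows. With RPS3 siRNA 1 passed after quantile normalization, 1 without both 6 h arrays and 2 under the time block, which gave 1 for the difference. Tested singly, 12 probes passed in the mean of all arrays. Leaving out 1 array gave 0 to 1 with RPS3 siRNA, with p65 siRNA and in the mean of all arrays, and 0 to 296 in the slope, the 296 without the p65 siRNA array at 1 h. Among the 38 genes, the count at an unadjusted p under 0.05 with 1 array left out fell to 1 with RPS3 siRNA (without its 1 h array), to 1 with p65 siRNA (without RPS3 siRNA at 3 h, p65 siRNA at 3 h or p65 siRNA at 6 h) and to 0 in the difference (without RPS3 siRNA at 1 h, p65 siRNA at 1 h or p65 siRNA at 6 h). For RPS3 siRNA it was 5 with complete probes only and also 5 under the time block. The kinases minus the phosphatases with RPS3 siRNA came to 0.089 for features with values on all 6 arrays, 0.071 with complete probes only and 0.071 if the values are natural logs. With p65 siRNA the value was -0.024 with single probes. The mean of DUSP5 with RPS3 siRNA was -0.80 if the values are natural logs, and ran from -0.62 to -0.44 with 1 array left out. The causes were not tested. The slope was not refitted with the time block or without the 6 h arrays, which remove time or its longest point.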
